A study of Homo sapiens with 6 samples.

Results

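The 45 genes described here encode proteins that start, order and carry out mitosis. They comprise 7 cyclin, CDK1 and CDC25 phosphatase genes, 3 Aurora and Polo-like kinases, 8 genes of the spindle checkpoint, 7 of the centromere and kinetochore, 10 of spindle motors and spindle-binding proteins, 6 of condensin and mitotic chromosome structure, 3 of cytokinesis, and the transcription factor FOXM1. The genes were listed by function and found by symbol. All 45 were among the 25369 genes of the files, and all 45 passed the filter on low values, which left 13303 genes for testing.

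Expression was measured by poly(A) RNA-Seq in Caki2, an established human clear cell renal cell carcinoma (ccRCC) line that lacks PBRM1 protein, the bromodomain subunit that defines the PBAF form of the SWI/SNF chromatin remodeling complex. The comparison asked which transcripts differed upon PBRM1 re-expression. Caki2+Vector cells carried an empty doxycycline-inducible lentiviral vector and were labelled as having no PBRM1 expression, and Caki2+PBRM1 cells carried the same kind of vector with PBRM1. Both were stable selected lines kept in doxycycline at 2 µg/ml, with 3 replicates (A, B and C) of each group, and nothing in the labels says whether the replicates came from separate cultures, so p-values measure the spread between these samples. Each line was compared only with the other, so a difference between the lines that arose in selection cannot be told apart from an effect of PBRM1.

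PBRM1 itself checked the labels. Its normalized count was 195, 182 and 182 in Caki2+Vector and 2432, 2521 and 2682 in Caki2+PBRM1, which is a log2 fold change of 3.76 (SE 0.06, limma adjusted p = 3.33e-29). These counts do not separate reads of the cells' own PBRM1 transcript from those of the construct. The libraries held 7312955 to 10835355 reads on genes. Caki2+Vector A stood apart from its group, with a chi-square per degree of freedom of 3.09 and 2.84 against Caki2+Vector B and C, where the other pairs of replicates gave 1.19 to 1.34, so counts without this library are given beside those of all 6. The renal and epithelial genes PAX8, KRT8, KRT18, CDH2 and CDH6 and VIM were abundant, whereas CA9, a marker of clear cell carcinoma, was between 0 and 15.2. With PAX2 these make 8 markers, of which 7 were tested. Of the 7, 2 were upregulated and 2 downregulated (28.6% each, beside 16.2% and 13.0% of all genes tested). Of 10 markers of other cell types, 8, with PTPRC, CD3E, PECAM1 and CDH5 among them, were at 5.68 or below in every library, while CD68 was at 1898 to 2139.9 and COL1A1 at 65.5 to 88.9.

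As background, mitosis is driven by CDK1 bound to cyclin B, which CDC25 phosphatases activate and the anaphase-promoting complex ends by destroying the cyclin. Kinetochores, protein assemblies on the centromeres, attach chromosomes to spindle microtubules, and the spindle checkpoint delays anaphase until every kinetochore is attached. Many of these genes are repressed early in the cycle by the DREAM complex. They are transcribed mainly in G2 and M phase, under MuvB with B-MYB and FOXM1. Both act through a promoter element called the cell cycle genes homology region (CHR), often with CCAAT boxes bound by NF-Y upstream of it. In bulk RNA, fewer cells in mitosis and less of a transcript in each such cell cannot be told apart.

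The mitosis genes were neither uniformly lower nor uniformly higher in Caki2+PBRM1 cells. Of the 45, 7 were downregulated (KNTC1, TPX2, NUP107, AURKA, CENPE, CCNB1 and ECT2), 4 were upregulated (GAS2L3, CCNF, CDC25B and MKI67) and 34 did not pass an adjusted p of 0.05 in limma. The 11 that passed make 24.4% of the members, beside 29.2% of all genes tested. By direction, 15.6% of the members were downregulated, beside 13.0% of all genes tested, and 8.89% were upregulated, beside 16.2%. The groups did not overlap for 11 members with lower and 8 members with higher values in Caki2+PBRM1, where 19.6% and 22.1% of all genes tested had this pattern. The members thus passed the test no more often than other genes did, with a share near the background among decreases and below it among increases.

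**Figure D1:**
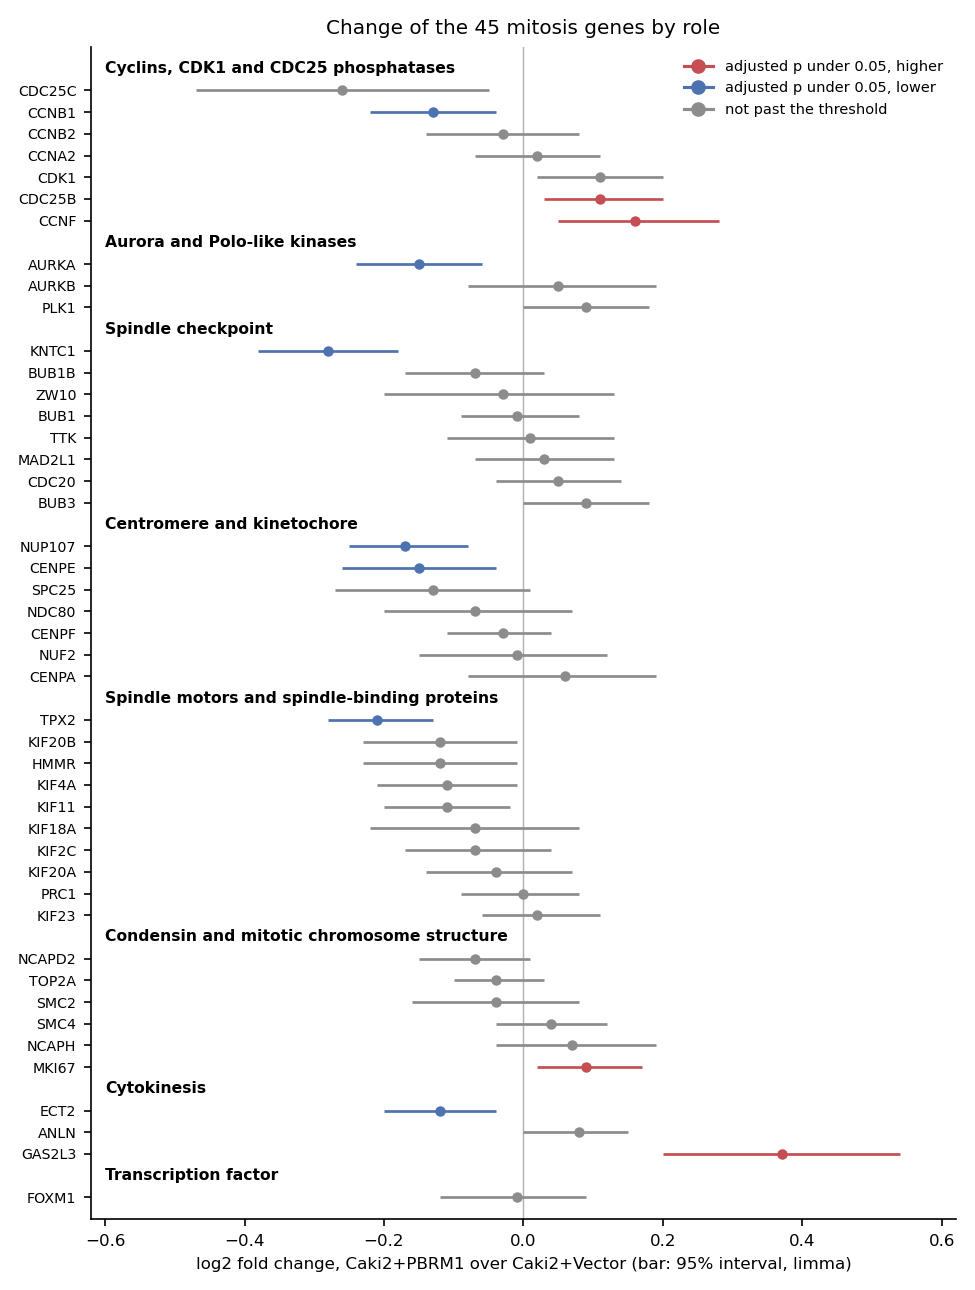
Log2 fold change (x axis, Caki2+PBRM1 over Caki2+Vector, log2(normalized count + 1) scale) of each of the 45 mitosis genes, grouped by role, with 95% intervals from limma as bars. Red and blue mark the 4 upregulated and 7 downregulated genes, and grey the 34 that did not pass the threshold; GAS2L3 at 0.37 and KNTC1 at -0.28 lie at the ends of the range.

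Changes were small. The log2 fold change ranged from -0.28 (KNTC1) to 0.37 (GAS2L3), with a median of -0.03 beside -0.00 over all genes tested, and it was negative in 28 members and positive in 17. Its median size was 0.07 in the members and 0.14 over all genes tested. The median standard error was 0.05 in the members and 0.08 over all, and the members had more reads behind them, with a median normalized count of 1200.0 against 264. For 38 of 45 members the 95% interval of the fold change lay within 1.2-fold in either direction. The exceptions were KNTC1, TPX2, CENPE, GAS2L3 and CCNF, which passed the test, and CDC25C and SPC25, which did not.

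Summed over the 45 genes, the normalized count was 77064, 74146 and 74394 in Caki2+Vector and 74146, 74199 and 73007 in Caki2+PBRM1. The group means were 75202 ± 1618 and 73784 ± 674 (SD, n = 3), a ratio of 0.981, and the highest value was that of Caki2+Vector A. This library held the highest of the 3 Caki2+Vector values for 29 of the 45 members and the lowest for 6, whereas it was highest for 36.6% and lowest for 37.6% of all genes tested. Without it, 9 members were downregulated and 6 upregulated, beside 14.4% and 16.9% of all genes tested, and the median log2 fold change of the members was -0.001. In that fit CENPE and CCNF no longer passed, and KIF4A, KIF11 and NCAPD2 (lower) and CDK1, BUB3 and ANLN (higher) did.

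The whole reads recovered from the files were also tested with count models. The quasi-likelihood test of edgeR on the recovered whole reads called 8 members lower and 3 higher, beside 13.8% and 16.5% of all genes tested. It added CDC25C, and MKI67 missed the threshold. DESeq2 called 4 members lower (KNTC1, TPX2, NUP107 and AURKA) and 1 higher (GAS2L3), beside 6.79% and 9.85% of all genes it tested. KNTC1, TPX2, NUP107 and GAS2L3 passed in the same direction in all 16 alternative fits, those that leave out a library included.

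**Figure D2:**
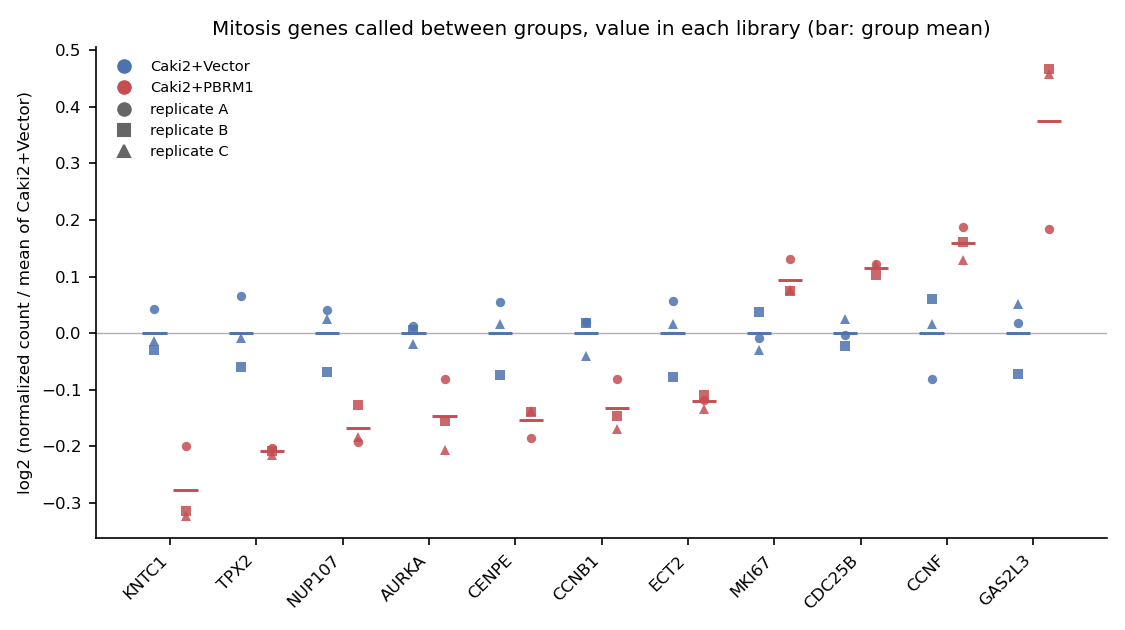
Value of the 11 mitosis genes that passed the threshold in each library, as log2 of the normalized count over the mean of Caki2+Vector (y axis); circles, squares and triangles are replicates A, B and C, and bars are group means. In all 11 genes the 3 Caki2+PBRM1 values (red) lie on one side of the 3 Caki2+Vector values (blue), and the Caki2+PBRM1 replicates of GAS2L3 are the most spread.

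The promoters of many of these genes, though not of all, hold the letters of the same elements. RefSeq promoter sequences (GRCh38.p14, 250 bases before to 50 bases after the start of transcription, the first window listed for each gene) were at hand for 39 of the 45 members, and for AURKA, BUB3, TTK, KNTC1, TPX2 and FOXM1 none is given. The letters of the CHR (TTTGAA or TTCGAA, either strand) stood in 28 of the 39 windows, or 71.8%, beside 10.8% of the 9828 windows of tested genes and 16.6% of all 27305 windows. The letters of the CCAAT box (CCAAT, either strand) also stood in 28 windows, beside 36.5% of those of tested genes. Both were present in 22, or 56.4%, beside 4.67%. Of the 41 DNA replication genes with a window, 7.32% held the CHR letters and 53.7% a CCAAT. Of 101 further mitosis genes with a window, a list described below, 38.6% held the CHR letters, 51.5% a CCAAT and 23.8% both. Such a match describes letters and does not show that a factor binds there.

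Decreases and increases occurred with and without the CHR letters. Of the members with them, 1 of 28 was downregulated and 2 were upregulated, and of the 11 members without them 3 were downregulated and 2 upregulated. The windows searched for those 11 lack TTTGAA and TTCGAA, and other forms of the CHR were not searched for. Among the 11, CDC25B and CDC25C have 4 windows each and AURKB has 2, of which only the first listed was searched. Only 4 of the 7 downregulated members have a window. Over all tested genes with a window, 14% of those with the CHR letters were downregulated and 15.2% upregulated, beside 13.1% and 17% of those without. Printed below are the 100 bases before the start for the 8 members that passed the test and have a window, and for PLK1 and CCNB2, which did not pass and were chosen after their values were seen, because both elements stand close to the start in them. Sequences run 5′ to 3′ on the strand of the gene, and capitals mark CHR letters (TTTGAA or TTCGAA) and CCAAT boxes (CCAAT, or ATTGG where the box is on the other strand).
PLK1 (chr16:23678789-23678888, plus strand): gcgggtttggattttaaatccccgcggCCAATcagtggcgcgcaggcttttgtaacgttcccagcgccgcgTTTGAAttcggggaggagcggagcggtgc
CCNB2 (chr15:59105046-59105145, plus strand): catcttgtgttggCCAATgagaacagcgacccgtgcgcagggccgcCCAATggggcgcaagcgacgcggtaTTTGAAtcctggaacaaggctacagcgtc
MKI67 (chr10:128126424-128126523, minus strand): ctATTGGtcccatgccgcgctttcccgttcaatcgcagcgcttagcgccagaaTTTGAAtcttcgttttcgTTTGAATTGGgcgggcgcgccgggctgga
CCNF (chr16:2429347-2429446, plus strand): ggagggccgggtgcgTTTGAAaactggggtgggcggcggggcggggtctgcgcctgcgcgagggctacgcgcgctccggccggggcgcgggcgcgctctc
CCNB1 (chr5:69167050-69167149, plus strand): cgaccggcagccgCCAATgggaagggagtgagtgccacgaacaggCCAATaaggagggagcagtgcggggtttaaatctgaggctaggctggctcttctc
ECT2 (chr3:172750626-172750725, plus strand): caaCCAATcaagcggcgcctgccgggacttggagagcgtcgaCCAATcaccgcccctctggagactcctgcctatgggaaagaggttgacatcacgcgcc
NUP107 (chr12:68686878-68686977, plus strand): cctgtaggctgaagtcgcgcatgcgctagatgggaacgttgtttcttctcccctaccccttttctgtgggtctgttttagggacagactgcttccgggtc
CENPE (chr4:103198344-103198443, minus strand): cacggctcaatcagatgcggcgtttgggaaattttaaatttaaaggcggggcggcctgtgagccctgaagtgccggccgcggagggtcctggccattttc
CDC25B (chr20:3786851-3786950, plus strand): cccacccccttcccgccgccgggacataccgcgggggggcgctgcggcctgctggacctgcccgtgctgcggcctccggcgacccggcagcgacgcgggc
GAS2L3 (chr12:100593518-100593617, plus strand): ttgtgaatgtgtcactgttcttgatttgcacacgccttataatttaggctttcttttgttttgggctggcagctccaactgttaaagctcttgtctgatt
In PLK1, CCNB2 and MKI67 the CHR letters nearest the start begin 29 bases before it. In MKI67 these letters and a CCAAT on the other strand share a base. In CCNF the nearest CHR letters begin 85 bases before the start, and the ECT2 window holds them 115 bases before and 35 bases after the start, both outside the stretch shown. CCNB1 holds a pair of CCAAT boxes and neither TTTGAA nor TTCGAA. NUP107 has a CCAAT outside the stretch shown, 138 bases before the start, and no CHR letters. In the windows searched for CENPE, CDC25B and GAS2L3 none of these letters was found. The GAS2L3 window lies inside the annotated gene, at a start downstream of the outermost one, whose promoter was not searched. GAS2L3 is counted among the members without the CHR letters.

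**Figure D3:**
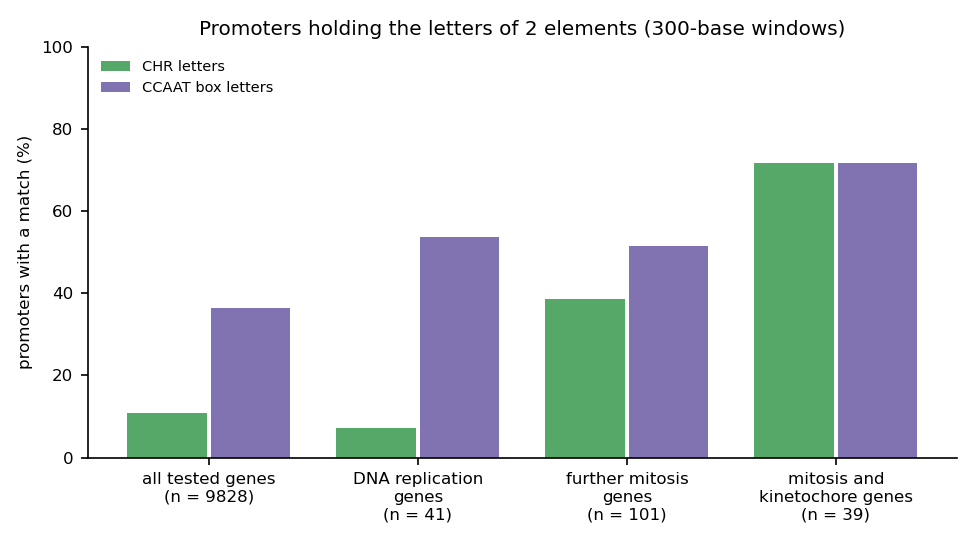
Share of promoter windows (y axis, percent; 250 bases before to 50 after the start) that hold the letters of the CHR (green) or of a CCAAT box (purple), for 9828 tested genes, 41 DNA replication genes, 101 further mitosis genes and 39 of the mitosis and kinetochore genes. The CHR letters are in 71.8% of the windows of the mitosis and kinetochore genes, in 38.6% of those of the further mitosis genes and in 10.8% of those of all tested genes.

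Among the cyclins, CDK1 and the CDC25 phosphatases, the mitotic cyclin CCNB1 was lower and CCNF and CDC25B were higher in Caki2+PBRM1. CCNB1 encodes cyclin B1, the partner of CDK1 at mitotic entry (chr5:68462962-68474072 on hg19, plus strand). Its normalized count was 1787, 1784 and 1714 in Caki2+Vector and 1666, 1592 and 1566 in Caki2+PBRM1. Each Caki2+PBRM1 value was below each Caki2+Vector value, with a log2 fold change of -0.13 (SE 0.04, limma adjusted p = 0.0208). The call was lost in DESeq2 (0.0554) and without Caki2+Vector B (0.0587), Caki2+PBRM1 B (0.0928) or Caki2+PBRM1 C (0.127).

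CCNF encodes cyclin F, an F-box protein that directs ubiquitin ligation and binds no CDK (chr16:2479395-2508855, plus strand). Its values were 587, 647 and 628 in Caki2+Vector and 707, 694 and 679 in Caki2+PBRM1, with a log2 fold change of 0.16 (SE 0.06, limma adjusted p = 0.0317). CDC25B, the phosphatase that first activates CDK1 at the centrosome (chr20:3767419-3786768, plus strand), gave 1345, 1326 and 1371 against 1466, 1447 and 1464, with a log2 fold change of 0.11 (SE 0.04, limma adjusted p = 0.0473). Neither gene's groups overlapped. Both calls were lost in DESeq2 (0.146 for CCNF, 0.155 for CDC25B) and without any 1 Caki2+PBRM1 library, at 0.0623 to 0.121 for CCNF and 0.112 to 0.142 for CDC25B. CCNF also missed the threshold without Caki2+Vector A (0.0811), and CDC25B without Caki2+Vector B (0.11) or C (0.055), under quantile normalization (0.141) and with no filter (0.0778).

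The other cyclins did not pass. CCNB2, the second B-type cyclin, had a log2 fold change of -0.03 (adjusted p = 0.732) and CCNA2, cyclin A2, one of 0.02 (adjusted p = 0.816). CDK1 itself was at 1709.0 ± 75.4 in Caki2+Vector and 1840.3 ± 70.9 in Caki2+PBRM1 (mean ± SD, n = 3), which is a log2 fold change of 0.11 (adjusted p = 0.0709), and passed without Caki2+Vector A (0.00308). CDC25C, a phosphatase of the mitotic switch, was at 184, 161 and 168 against 161, 128 and 138. Its log2 fold change of -0.26 had the widest error of the role (SE 0.10, limma adjusted p = 0.0564), and 5 of the 16 alternatives put it past the threshold, edgeR (0.0432) and the fit without Caki2+PBRM1 A (0.0252) among them.

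Of the Aurora and Polo-like kinases, only AURKA passed. AURKA encodes Aurora A, the kinase of centrosome maturation and spindle assembly (chr20:54944445-54967393, minus strand). Its values of 1536, 1528 and 1503 in Caki2+Vector stood above 1439.5, 1367 and 1319 in Caki2+PBRM1. This gave a log2 fold change of -0.15 (SE 0.05, limma adjusted p = 0.0137), and the call was lost without Caki2+PBRM1 B (0.0617) or C (0.12). AURKB, the Aurora kinase of the chromosomal passenger complex, was at 374 ± 7.77 and 387 ± 11 (SD, n = 3; log2 fold change 0.05, adjusted p = 0.609). PLK1, a kinase of mitotic entry and exit, was at 1711 ± 87.6 and 1817 ± 14.7 (log2 fold change 0.09, adjusted p = 0.139). Both had groups that did not overlap, with Caki2+PBRM1 the higher, but neither difference passed the test.

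Of the 8 spindle checkpoint genes, KNTC1 was the only one that passed. KNTC1 encodes ROD, which with ZW10 and ZWILCH forms the RZZ complex that brings MAD1 and MAD2 and dynein to unattached kinetochores (chr12:123011793-123110943, plus strand). Its normalized count was 1339, 1274 and 1288 in Caki2+Vector and 1133, 1046 and 1039.9 in Caki2+PBRM1, means of 1300.2 ± 34.1 and 1073 ± 52.0 (SD, n = 3). This was the strongest decrease of the 45 genes, with a log2 fold change of -0.28 (SE 0.05, 95% interval -0.38 to -0.18, limma adjusted p = 4.77e-05). The other subunits of its complex did not pass: ZW10 was at 263 ± 8.66 and 258 ± 23.6 (log2 fold change -0.03, adjusted p = 0.807), and ZWILCH, which is no member and was looked up after its values were seen, at 596 ± 48.4 and 564 ± 2.0 (-0.08, adjusted p = 0.381). The difference in response between the subunits was not tested.

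The remaining checkpoint genes lay close to 0. BUB1 and BUB1B, the checkpoint kinase and BUBR1, had log2 fold changes of -0.01 and -0.07, TTK, the kinase MPS1, one of 0.01, and MAD2L1, which encodes MAD2, one of 0.03, with adjusted p of 0.29 or more. CDC20, the activator of the anaphase-promoting complex that the checkpoint holds back, was at 1507 ± 71.1 and 1558 ± 23.1 (SD, n = 3; log2 fold change 0.05, adjusted p = 0.445). BUB3, which carries BUB1 and BUBR1 to kinetochores, was at 1619.7 ± 51.8 and 1722 ± 32.5 (0.09, adjusted p = 0.126) and passed without Caki2+Vector A (0.0186).

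Of the 7 centromere and kinetochore genes, NUP107 and CENPE were downregulated (28.6%, beside 13.0% of all genes tested) and none was upregulated. In either direction 29.2% of all genes tested passed. Of the 7 fold changes, 6 were negative, beside 50.6% of those of all genes tested. Without Caki2+Vector A, 1 of the 7 was downregulated (NUP107), beside 14.4% of all genes tested, and 4 of the 7 fold changes were negative, beside 51.2%. NUP107 encodes a scaffold subunit of the nuclear pore that also sits at mitotic kinetochores (chr12:69080731-69139589, plus strand). Its values were 2135, 1979 and 2111 in Caki2+Vector and 1816, 1901 and 1827 in Caki2+PBRM1. All 3 Caki2+PBRM1 values were lower, with a log2 fold change of -0.17 (SE 0.04, limma adjusted p = 0.00342) and an adjusted p of at most 0.0333 in any alternative. Of the other subunits of the NUP107 complex on the list of further mitosis genes, looked up after their values were seen, NUP160 was also downregulated in every alternative (1193 ± 52.4 to 1060.1 ± 17.1, log2 fold change -0.17, adjusted p = 0.00776), NUP85 was at -0.16 (adjusted p = 0.0719), NUP37 at -0.15 (0.135), NUP43 at -0.09 (0.25), NUP133 at 0.02 (0.831) and SEH1L at 0.08 (0.37).

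CENPE encodes the kinesin that moves chromosomes to the spindle equator (chr4:104026506-104119602, minus strand). Its values of 794, 726 and 773 in Caki2+Vector were above 672, 694 and 695 in Caki2+PBRM1, with a log2 fold change of -0.15 (SE 0.05, limma adjusted p = 0.0339). The call was lost in DESeq2 (0.134), with no filter (0.0509), and without Caki2+Vector A (0.0657), Caki2+Vector C (0.085) or any 1 Caki2+PBRM1 library (0.0773 to 0.13). The microtubule-binding NDC80 complex was represented by NDC80, NUF2 and SPC25, at log2 fold changes of -0.07, -0.01 and -0.13 (adjusted p = 0.473, 0.91 and 0.145). CENPA, the histone H3 variant that marks centromeres, was at 0.06 (adjusted p = 0.576), and CENPF, a large kinetochore protein of G2 and M phase, at -0.03 (adjusted p = 0.558).

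Of the 10 spindle motors and spindle-binding proteins, TPX2 was downregulated (10.0%, beside 13.0% of all genes tested) and none of the other 9 passed. Of the 10 fold changes, 9 were negative, beside 50.6% of those of all genes tested, with a median log2 fold change of -0.09. Without Caki2+Vector A, 3 of the 10 were downregulated (TPX2, KIF11 and KIF4A), beside 14.4% of all genes tested. In that fit 8 of the 10 fold changes were negative, beside 51.2%, and the median of the 10 was -0.05. Their summed normalized count was 15594, 14846 and 14701 in Caki2+Vector and 13974, 14078 and 13941 in Caki2+PBRM1, a ratio of 0.930. These sums do not overlap, and TPX2 contributes the largest part of the difference. TPX2 encodes the protein that activates AURKA on spindle microtubules (chr20:30327074-30389608, plus strand). Its values were 4840.4, 4438 and 4599 in Caki2+Vector and 4019.7, 4007 and 3987 in Caki2+PBRM1. The Caki2+PBRM1 replicates were nearly equal, and the log2 fold change was -0.21 (SE 0.04, limma adjusted p = 7.29e-05), at most 0.00206 in any alternative.

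Of the kinesins, KIF11, the motor that separates the spindle poles, was at 1336 ± 6.26 and 1235 ± 13.3 (SD, n = 3), a log2 fold change of -0.11 (adjusted p = 0.0545). KIF4A, a chromosome-bound kinesin, was at -0.11 (adjusted p = 0.0948), and KIF20B, a kinesin of cytokinesis, at -0.12 (adjusted p = 0.1). In these 3 genes the groups did not overlap. KIF11 and KIF4A passed without Caki2+Vector A (0.0376 and 0.03), while KIF20B moved to -0.05 without it (0.457). KIF4A has a near-identical copy, KIF4B, which was listed at 25.2 to 40.1, so a part of its reads may be split between them. HMMR, a spindle-assembly factor, was at -0.12 (adjusted p = 0.0855) and, without Caki2+Vector A, at -0.06 (0.304). KIF18A, KIF2C, KIF20A, PRC1 and KIF23, with roles in chromosome alignment, microtubule depolymerization and the central spindle, lay between -0.07 and 0.02.

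In the set of condensin and mitotic chromosome structure, MKI67 alone passed, and it was higher. MKI67 encodes Ki-67, the coat protein of mitotic chromosomes used to count proliferating cells (chr10:129894923-129924687, minus strand). Its values were 4516, 4666 and 4453 in Caki2+Vector and 4974, 4784 and 4792 in Caki2+PBRM1, with a log2 fold change of 0.09 (SE 0.04, limma adjusted p = 0.0462). The groups did not overlap, but the call was lost in edgeR (0.0532), in DESeq2 (0.111), with no filter (0.0578), under quantile normalization (0.285), and without Caki2+Vector C (0.133) or any 1 Caki2+PBRM1 library (0.101 to 0.23). TOP2A, which untangles sister chromatids, was at 8292, 7798 and 7854 against 7842, 7931 and 7583, with groups that overlapped and a log2 fold change of -0.04 (adjusted p = 0.469). The condensin core subunits SMC2 and SMC4 were at -0.04 and 0.04 (adjusted p = 0.691 and 0.495), and the condensin I subunits NCAPD2 and NCAPH at -0.07 and 0.07 (0.2 and 0.355). NCAPD2 passed without Caki2+Vector A (-0.10, 0.0109).

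In cytokinesis, ECT2 was lower, GAS2L3 was higher and ANLN did not pass. ECT2 encodes the exchange factor that activates RhoA at the cleavage plane (chr3:172468472-172539264, plus strand). Its values were 3096, 2823 and 3012 in Caki2+Vector and 2742, 2759.8 and 2713 in Caki2+PBRM1, with no overlap and a log2 fold change of -0.12 (SE 0.04, limma adjusted p = 0.0238). The call was lost in DESeq2 (0.0581) and without Caki2+Vector C (0.0627) or any 1 Caki2+PBRM1 library (0.0707 to 0.107). GAS2L3 encodes a protein that links actin and microtubules in the dividing cell (chr12:100967461-101022066, plus strand). Its values were 240.5, 226 and 246 in Caki2+Vector and 269.7, 328 and 326 in Caki2+PBRM1. All 3 Caki2+PBRM1 values were above those of Caki2+Vector, replicate A by the least, and the log2 fold change of 0.37 (SE 0.08, 95% interval 0.20 to 0.54, limma adjusted p = 0.00113) was the largest of the 45 genes in either direction. ANLN, anillin, the scaffold of the contractile ring, was at 4853, 4594 and 4637 against 5037, 4925 and 4889.7, with no overlap but a log2 fold change of 0.08 (adjusted p = 0.105) that passed without Caki2+Vector A (0.0045).

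FOXM1, a transcription factor of many genes of this list, did not pass. Its normalized count was 842, 826 and 843 in Caki2+Vector and 832, 826 and 827 in Caki2+PBRM1, with a log2 fold change of -0.01 (SE 0.05, 95% interval -0.12 to 0.09, limma adjusted p = 0.857). Its fold change stayed between -0.03 and -0.01 in every alternative.

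Levels of the members spanned a wide range. Divided by the length of the gene's exons, TOP2A had 1237 normalized counts per kilobase of exon, TPX2 1197 and ANLN 804, the highest 3 of the 45 over the 6 libraries. GAS2L3 at 36.7, CDC25C at 47.1 and CENPE at 73.1 were the lowest, and the lowest normalized count of any member in any library was 128, that of CDC25C. Between these, FOXM1 was at 169 and AURKA at 495 normalized counts per kilobase. The order of TOP2A and TPX2 depended on the group: TPX2 was at 1283 and TOP2A at 1252 normalized counts per kilobase in Caki2+Vector, with overlapping libraries, and at 1111 and 1221 in Caki2+PBRM1.

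**Figure D4:**
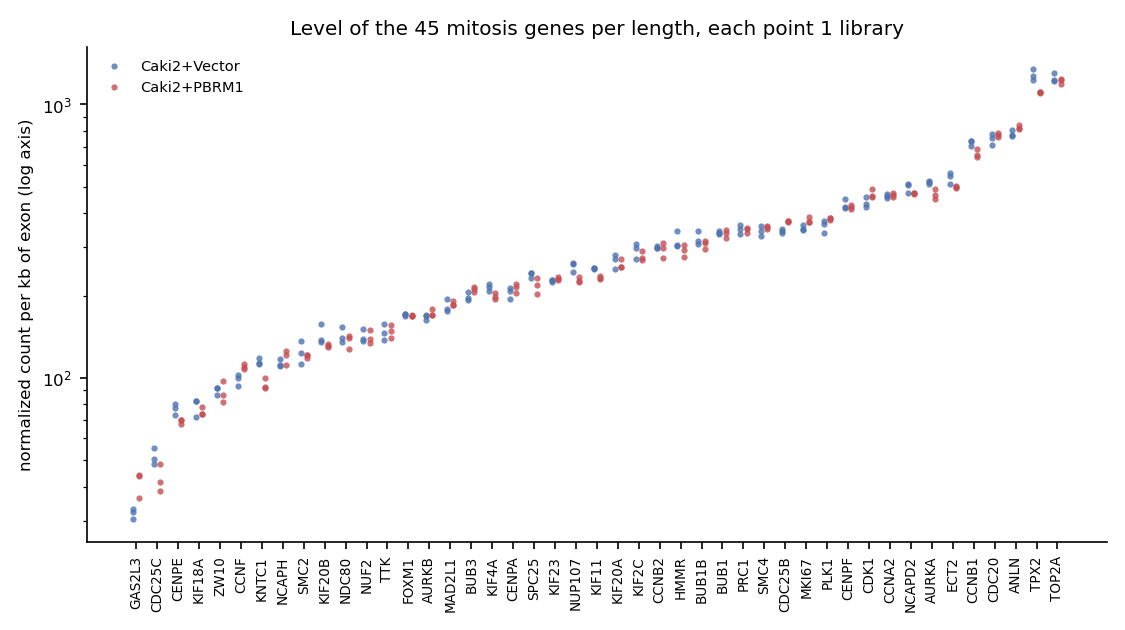
Normalized count per kilobase of exon (y axis, log scale) of the 45 mitosis genes in order of their mean, with 1 point for each library, Caki2+Vector in blue and Caki2+PBRM1 in red. Levels run from 36.7 for GAS2L3 to 1237 for TOP2A on average, and the libraries of a gene lie close together beside this range.

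For AURKA, KNTC1 and NUP107 the study designed qPCR primers, having picked these genes from the same RNA-Seq, so their choice adds no independent evidence. The qPCR itself was a separate measurement. The paper reports that it showed several representative cell cycle genes to be downregulated, in independent biological replicate experiments, and its text does not name them. The primers are shown because they mark which part of each transcript was followed, and each matched the coding part of its gene's GENCODE transcript exactly (hg19 positions, all letters in lower case as nothing is marked).
AURKA forward (chr20:54959350-54959373, exon 4): tcctgaggaggaactggcatcaaa
AURKA reverse (chr20:54958186-54958209, exon 5): tacccagagggcgaccaatttcaa
KNTC1 forward (chr12:123036201-123036220, exon 16): tgaagctgagagttttgcca
KNTC1 reverse (chr12:123041970-123041989, exon 17): tccacagaactcaatgccag
NUP107 forward (chr12:69129100-69129119, exon 26): agggtggatggtggatgtta
NUP107 reverse (chr12:69135652-69135671, exon 27): gcagaaaacacaacattggc
In each gene the pair lies in neighboring exons, with amplicons of 95 bases for AURKA and 102 for KNTC1. The RNA-Seq values are summed over all exons of a gene and do not resolve these stretches.

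A wider list covered the other proteins of the same machinery. Of 121 further mitosis genes, all tested, 22 were downregulated (18.2%, beside 13.0% of all genes tested) and 6 upregulated (4.96%, beside 16.2%), with a median log2 fold change of -0.04. In either direction 23.1% passed, beside 29.2% of all genes tested. The largest decreases were those of HAUS1, a subunit of the augmin complex that branches spindle microtubules, from 275 ± 28.2 to 201 ± 16.1 (SD, n = 3; log2 fold change -0.45, adjusted p = 0.000235), ANAPC7, a subunit of the anaphase-promoting complex (-0.40, adjusted p = 2.54e-05), and OIP5, which helps load CENPA (-0.39, adjusted p = 0.000108). The largest increases were those of FZR1, the activator CDH1 of the same complex (0.28, adjusted p = 0.0262), ASPM, a spindle pole protein (0.19, adjusted p = 0.000291), and NUMA1, which anchors the poles (0.18, adjusted p = 0.00784). FZR1 was at 219.6, 303 and 282 in Caki2+Vector and missed the threshold without Caki2+Vector A (0.154), Caki2+PBRM1 A or Caki2+PBRM1 C, and in DESeq2, with 0.154 the highest of these. NUMA1 missed it without Caki2+PBRM1 B (0.0509), and the other 4 genes named here passed in all 16 alternatives. Of the 13 further mitotic kinases and phosphatases and the 3 chromosomal passenger genes, none passed in limma.

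Of 19 regulators of mitotic transcription, 4 were downregulated (21.1%, beside 13.0% of all genes tested) and 3 upregulated (15.8%, beside 16.2%). LIN52, a subunit of MuvB, was at 151, 132 and 156 in Caki2+Vector and 115, 108 and 91.5 in Caki2+PBRM1 (log2 fold change -0.48, adjusted p = 0.0018). E2F8, an E2F repressor, was lower by a log2 fold change of -0.36 (adjusted p = 0.0149), and NFYB, a subunit of the CCAAT-binding NF-Y, by -0.26 (adjusted p = 0.013). RBL2, the pocket protein p130 of DREAM, was at 343, 345 and 350 against 404, 416 and 429.7 (0.27, adjusted p = 0.00272), and TFDP2, an E2F partner, and NFYA, another NF-Y subunit, were higher at 0.21 and 0.20 (adjusted p = 0.0153 and 0.013). LIN52 and RBL2 passed in all 16 alternatives. In DESeq2 and without 1 or more of the libraries the other 4 missed the threshold, E2F8 without Caki2+Vector C, Caki2+PBRM1 A or B (up to 0.0882), NFYB without Caki2+Vector A or Caki2+PBRM1 A (up to 0.103), TFDP2 without Caki2+Vector B, Caki2+PBRM1 B or C (up to 0.103), and NFYA without Caki2+PBRM1 B or C (up to 0.0715). MYBL2, which encodes B-MYB, was at -0.08 (adjusted p = 0.174).

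Genes of DNA replication were listed for the neighboring phase of the cycle. Of 47, 16 were downregulated (34.0%, beside 13.0% of all genes tested), with a median log2 fold change of -0.12. RRM2, a subunit of ribonucleotide reductase, was the 1 gene upregulated (0.17, adjusted p = 0.00123), or 2.13% of the list beside 16.2% of all genes tested. PRIM1, the catalytic subunit of primase, went from 619.7 ± 33.3 to 446 ± 17.3 (-0.47, adjusted p = 6.12e-07), MCM6, of the replicative helicase, from 1482 ± 47.1 to 1166 ± 30.1 (-0.34, adjusted p = 7.86e-07), and DBF4, the partner of the CDC7 kinase, from 306 ± 14.4 to 255 ± 8.21 (-0.26, adjusted p = 0.00989). DBF4 missed the threshold in DESeq2 (0.0707), and the other 3 genes passed in all 16 alternatives. The difference between this list and the mitosis genes was not tested.

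**Figure D5:**
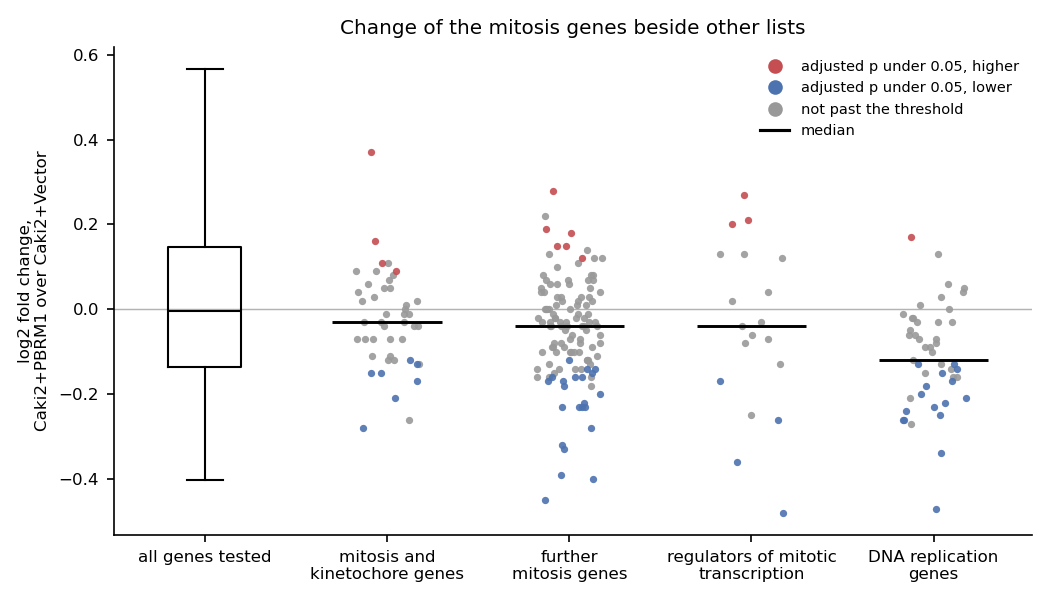
Log2 fold change (y axis, Caki2+PBRM1 over Caki2+Vector) of the 45 mitosis and kinetochore genes, 121 further mitosis genes, 19 regulators of mitotic transcription and 47 DNA replication genes, with 1 point for each gene and a black line at the median; the box spans the 25th to 75th percentile of all 13303 genes tested and its whiskers the 5th to 95th. The medians of the lists are -0.03, -0.04, -0.04 and -0.12.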

How the data were processed

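Poly(A) RNA of 3 Caki2+Vector and 3 Caki2+PBRM1 samples was sequenced as 100 bp paired-end reads, and the groups were taken from the sample labels. Per the methods and labels, the authors used STAR for alignment to hg19 and HTSeq for counts on 25369 UCSC genes. The signal values the authors deposited are read counts normalized with DESeq2 size factors (0.834 to 1.191), not divided by gene length. Dividing by the step between values gave whole reads for 100.00% of values (tolerance 0.01).

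A gene was tested if 3 or more samples had a normalized count of 10 or more. The 13303 genes kept were fitted on log2(normalized count + 1) with limma 3.58.1 (R 4.3.3), whose empirical Bayes step used a trend and was robust, and p-values were adjusted over all of them by Benjamini-Hochberg, with 0.05 as the threshold. Fold changes on this scale slightly understate changes of low genes. On recovered reads, edgeR 4.0.16 called 4030 genes and DESeq2 1.42.0 called 2425 of 14575. Alternatives were these, voom, pseudocounts of 0.5 and 4, 2 other filters, TMM and quantile normalization, the replicate block, and leaving out each library. Scripts were tested on simulated data. The members and lists were chosen with earlier results of these data known. Members, PBRM1 and, of each other list, the 3 higher and 3 lower genes with the largest change past the threshold are named; others were looked up after their values were seen. Gene positions and exon lengths are from GENCODE on GRCh37. Whether counting used strand is not given in the sources used here.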

Additional observations from a re-analysis of the deposited data

How the results depend on the processing

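No fold change of the 45 mitosis genes changed direction past the threshold in any of 16 alternative fits. Of the 176 values of the 11 genes that passed, 137 stayed past the threshold and 39 did not, and of the 544 values of the other 34, 16 passed. DESeq2 called 1 member higher and 4 lower, 2 further mitosis genes higher and 12 lower, 1 regulator of mitotic transcription higher and 1 lower, and 9 DNA replication genes lower. At an adjusted p under 0.01 in limma the counts were 1 member higher and 3 lower, 2 further mitosis genes higher and 11 lower, 1 regulator higher and 1 lower, and 7 DNA replication genes lower. The share of all genes tested at this threshold is not given here, so these counts have no background beside them. With no filter 2 members were higher and 6 lower, beside 2136 and 1644 of the 19380 genes then tested. Quantile normalization, which shifted the median of all genes to -0.025, left 2 members and 3 further mitosis genes higher, with 10 members lower. Over all 13303 genes it called 1938 higher and 2083 lower, against 2152 and 1734 in the main fit, so the background moved the same way. The cause was not tested. Leaving out each library in turn gave 1 to 6 members higher and 3 to 9 lower, 2 to 6 further mitosis genes higher and 14 to 22 lower, 1 to 4 regulators higher and 1 to 4 lower, and 9 to 17 DNA replication genes lower. Over all 13303 genes tested, the same fits called 1649 to 2252 higher and 1207 to 1918 lower, so the overall number of calls moved as well. The letters A, B and C did not pair the libraries (correlation of deviations -0.00767 to 0.0138), and with the replicate block 4 members were higher and 9 lower, adding CDC25C and HMMR, with 4107 genes called in all against 3886. Not every library correlated best with its own letter. With 3 replicates a group, the 95% interval of 32 of the 34 members that did not pass lay within 1.2-fold, and smaller changes of these genes could not be told from none.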

Other observations

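A pair of complexes that the report does not describe had more than 1 subunit past the threshold. Their genes were singled out from the list of further mitosis genes after the values were seen, so the counts are descriptions. Of the 8 augmin subunits, which branch spindle microtubules, HAUS1, HAUS2, HAUS4 and HAUS7 were downregulated, with log2 fold changes of -0.45, -0.23, -0.23 and -0.32 (adjusted p = 0.000235, 0.00418, 0.0346 and 0.0177 in limma). Of all genes tested, 13.0% were downregulated. HAUS3, HAUS5, HAUS6 and HAUS8 lay between -0.13 and 0.02. HAUS1 and HAUS2 passed in all 16 alternatives, HAUS4 missed the threshold in DESeq2 and without Caki2+Vector B, Caki2+PBRM1 B or C (up to 0.185), and HAUS7 in DESeq2 and without Caki2+Vector C, Caki2+PBRM1 A or C (up to 0.159). HAUS1 was at 308, 259 and 259 in Caki2+Vector and 182, 211 and 209 in Caki2+PBRM1.

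Of the 17 genes of cohesin, the ring that holds sister chromatids together, and its regulators, SMC3 (-0.18, adjusted p = 0.00412), STAG2 (-0.16, adjusted p = 0.0103), PDS5A (-0.15, adjusted p = 0.00669) and SGO2, the protector of centromeric cohesin (-0.20, adjusted p = 0.0109), were downregulated. These 4 make 23.5% of the 17, beside 13.0% of all genes tested that were downregulated. With STAG1, 5 of the 17 (29.4%) passed, beside 29.2% of all genes tested. STAG1, the alternative to STAG2 in the ring, was at 583 ± 17.9 in Caki2+Vector and 648 ± 27.5 in Caki2+PBRM1 (mean ± SD, n = 3; log2 fold change 0.15, adjusted p = 0.0467). Its call held in 6 of 16 alternatives and was lost without any 1 library other than Caki2+Vector A (up to 0.219 over the alternatives). SMC3 passed in all 16, STAG2 missed the threshold without Caki2+PBRM1 A (0.0527), PDS5A without Caki2+PBRM1 B or C (up to 0.0621), and SGO2 in DESeq2 and without Caki2+PBRM1 A or B (up to 0.0628). PTTG1, which encodes securin, was at -0.02 (adjusted p = 0.839).

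The exons of some members overlap those of other annotated genes at the same place in the genome. For SMC4, 22% of exon bases are shared with TRIM59 and for FOXM1 15.9% with ITFG2, both of which were also counted in the files, so reads there may be split or left out, and this was not tested. For PRC1, 61.9% are shared with an annotated gene that is not among those counted. For the other members at most 12.8% of exon bases overlap another gene. These shares leave out copies elsewhere in the genome, such as the pseudogenes AURKAP1 and AURKAP2 of AURKA and MKI67P1 of MKI67.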
